A study of Mus musculus with 6 samples.

Results

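The interferon-stimulated genes described here are 39 genes that cells switch on when interferons bind their receptors. They were chosen by symbol from a list of such genes, and all 39 were found among the 55331 genes of the deposited gene table. All 39 were also among the 15460 genes that the authors tested. The study measured polyadenylated RNA by RNA-seq in crypt cells of the mouse small intestine, the epithelium that holds the stem and dividing cells, to ask about PTBP1, a protein that binds RNA and regulates splicing, in the regrowth of that epithelium. The WT group (3 libraries) carried the floxed Ptbp1f/f alleles with no Cre. The PTBP1_KO group (3 libraries) had the genotype Ptbp1f/f;Vil-creER+/-, in which villin sequence drives a tamoxifen-activated Cre in intestinal epithelium. Immune and stromal cells among the crypts therefore should keep the floxed alleles intact. All animals were C57BL/6 at 60 days of age, and all received tamoxifen at 100 mg/kg on each of 2 days, with collection 20 h after the last dose. The WT group had tamoxifen but no Cre protein, so an effect of Cre and an effect of Ptbp1 loss cannot be told apart.

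The deposited gene table gives 1 FPKM value per group, that is, fragments scaled to transcript length and library size. The p-values in it come from the authors' Cuffdiff test on 3 libraries per group. They cannot be read as a measure of the spread between those libraries alone. The labels do not say whether each library came from its own animal. The gene table has no value per library, so neither an SD nor an interval of a difference can be given for any gene. The depth behind an FPKM value is unknown. Ptbp1 itself was lower in PTBP1_KO (122.8 FPKM) than in WT (230.0 FPKM), for a log2 ratio of -0.91 and q = 0.0125 in the authors' deposited table. Epithelial identity was clear, as 7 epithelial markers, among them Epcam and Vil1, were between 227 and 2011 FPKM in WT. Transcripts of lymphocytes, myeloid cells, B cells and stroma were also detected, and none of these markers was at 0 in both groups. Several were close to 0, such as Cx3cr1 (0.0181 FPKM) and Pdgfra (0.00216 FPKM) in WT. The authors tested 6 of 10 myeloid and 7 of 10 stromal markers. In such bulk RNA, fewer cells of a type and less RNA per cell cannot be told apart.

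Interferons act through paired receptors on the cell surface. Type I and type III interferons lead to a complex of STAT proteins with IRF9 that binds the interferon-stimulated response element (ISRE), whereas type II interferon (interferon gamma) leads to a STAT dimer that binds the gamma-activated site (GAS). The genes that follow encode proteins that block viral replication, sense viral nucleic acids, attack vacuoles that hold pathogens, and display antigen on major histocompatibility complex (MHC) class I. In the intestine, epithelial cells respond strongly to type III interferon, and a steady low expression of many of these genes is kept up by the microbiota.

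The promoters of the members show the sequence signals that tie them to this pathway, and 9 stretches are printed because they carry those signals in genes whose levels follow. Promoter sequences came from RefSeq (GRCm38.p6) and span 250 bases before to 50 bases after the start of the gene. Capitals mark a match to the ISRE, written here as GAAA and GAAA separated by 2 bases, or to the GAS, written TTCNNNGAA, on either strand. Each stretch is 60 bases long, reads 5′ to 3′ on the strand of its gene, and is given with its place.
Isg15, chr4:156200856-156200915, minus strand: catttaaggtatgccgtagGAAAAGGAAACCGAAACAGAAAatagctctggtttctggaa
Ifit1, chr19:34640769-34640828, plus strand: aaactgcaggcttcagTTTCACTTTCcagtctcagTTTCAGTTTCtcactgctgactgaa
Ifit3, chr19:34583365-34583424, plus strand: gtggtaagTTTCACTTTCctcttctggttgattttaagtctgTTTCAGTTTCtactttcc
Oas1a, chr5:120907526-120907585, minus strand: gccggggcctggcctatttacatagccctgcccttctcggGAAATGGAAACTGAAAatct
Bst2, chr8:71537565-71537624, minus strand: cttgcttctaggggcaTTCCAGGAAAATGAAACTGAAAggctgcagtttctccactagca
Gbp2, chr3:142620579-142620638, plus strand: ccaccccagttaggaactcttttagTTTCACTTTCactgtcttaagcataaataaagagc
Irgm1, chr11:48871421-48871480, minus strand: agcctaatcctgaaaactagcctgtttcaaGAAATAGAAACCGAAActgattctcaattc
Igtp, chr11:58199496-58199555, plus strand: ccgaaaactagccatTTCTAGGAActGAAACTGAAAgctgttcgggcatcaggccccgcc
Irgm2, chr11:58214888-58214947, plus strand: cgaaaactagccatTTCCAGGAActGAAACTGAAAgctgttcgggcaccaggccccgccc
In Isg15, 3 overlapping ISRE matches follow one another, and in Ifit1 and Ifit3 a pair of ISRE matches lies on the opposite strand. In Igtp and Irgm2, neighbouring genes for immunity-related GTPases, a GAS match stands next to an ISRE match. In Bst2 the GAS match overlaps the first of 2 ISRE matches.

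The promoter table held 30 of the 39 members. The ISRE was found in 18 of these 30 (60.0%), against 3.99% of the promoters of 27025 genes. With the last base of the ISRE left free, the shares were 66.7% and 9.76%. The GAS was found in 10 of 30 (33.3%), against 9.55% of all promoters. Both motifs occurred in 6 members (20.0%, against 0.614% of all genes), namely Bst2, Oas1a, Eif2ak2, Gbp7, Igtp and Irgm2. Neither was found in 8, which says only that these letters are not in this window. Overlaps between the motifs were allowed, and a match is a description of the sequence, not a measured binding site. Among 51 other interferon-stimulated genes with a promoter in the table, 45.1% held the ISRE and 13.7% the GAS. The motif map shows that most matches lay upstream of the start, while those of Ddx58, Ifih1 and the ISRE of Eif2ak2, all encoding sensors of double-stranded RNA, lay just downstream of it.

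**Figure D1:**
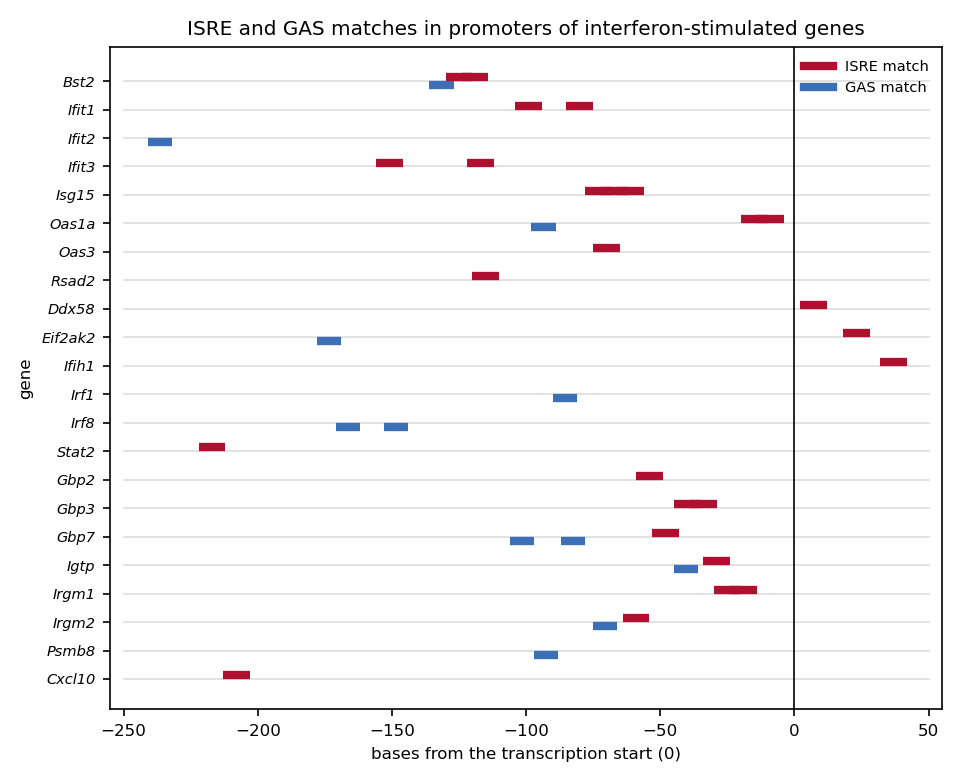
Places of ISRE (red) and GAS (blue) matches in the promoters of the members that held at least 1 match, in bases from the annotated start of the gene (x axis). Most matches lie in the 150 bases before the start, and 3 ISRE matches lie after it.

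No interferon-stimulated gene passed the authors' test, and levels in the 2 groups lay close together. The median level was 13.9 FPKM in WT and 14.1 FPKM in PTBP1_KO, and the 39 genes summed to 891 FPKM in WT and 913 FPKM in PTBP1_KO. By the authors' Cuffdiff test, 0 of 39 members passed a q of 0.05 (0.537% of all tested genes did) and 0 had an unadjusted p below 0.05 (4.35% of all tested genes did). The smallest unadjusted p among them in the authors' deposited table was 0.136, for Gbp2, and each member's q was 0.9998. Of the 39, 23 were listed higher in PTBP1_KO and 16 lower, a share close to the 54.7% of all tested genes that were listed higher.

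The sizes of the differences were small as well. On the scale of log2(FPKM + 1), the median difference was 0.03 for the members and 0.02 for all tested genes. In the authors' deposited table the median absolute log2 ratio was 0.10 for the members and 0.13 for all tested genes. An absolute log2 ratio below 0.1 was found for 19 members and one below 0.2 for 28. Only 5 members, Cxcl9, Gbp2, Dhx58, Nlrc5 and Ifi44, were at 0.3 or more. The ratio of PTBP1_KO to WT ranged from 0.711 for Cxcl9 to 1.35 for Gbp2. The plot of levels by role shows the paired values of each gene close together over the whole range of expression.

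**Figure D2:**
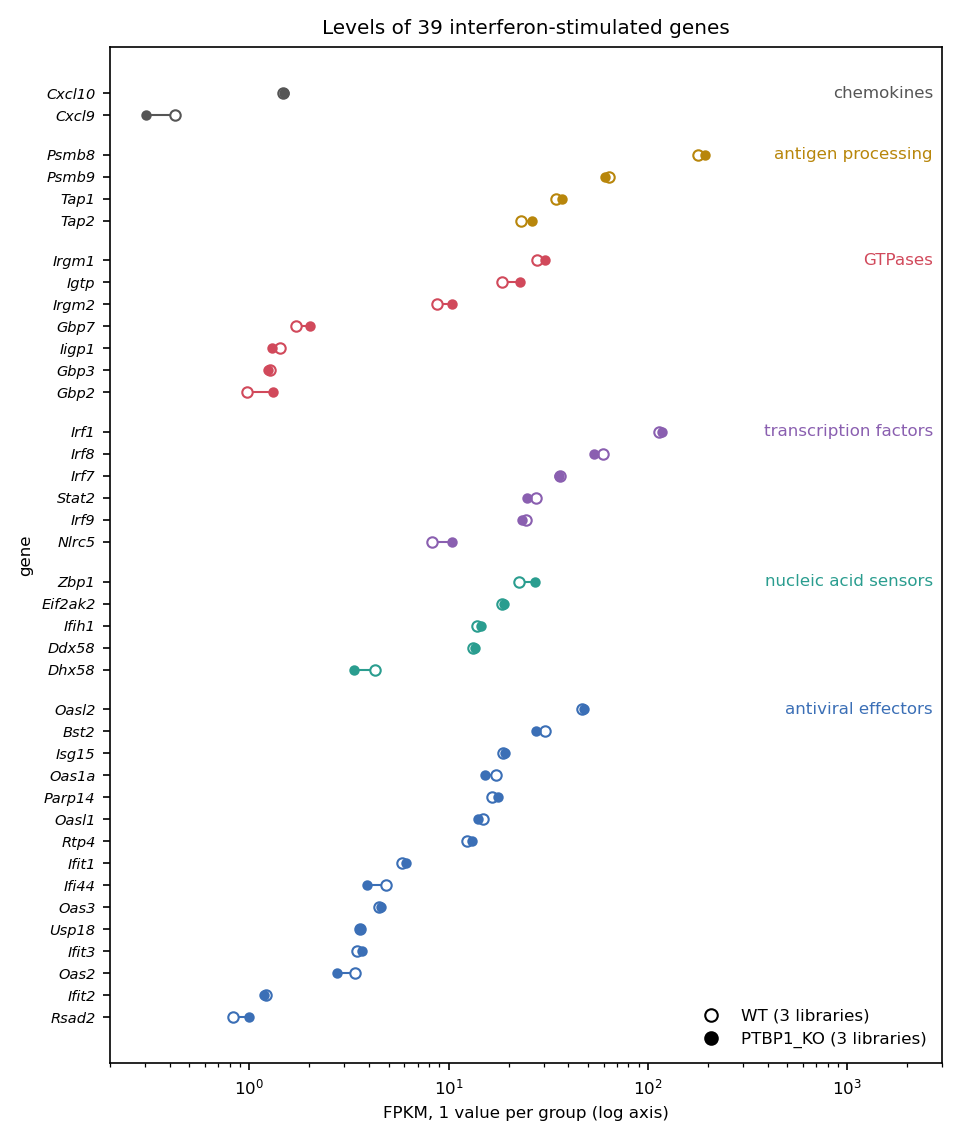
FPKM (log axis) of each of the 39 genes in WT (open points) and PTBP1_KO (filled points), 1 value per group over 3 libraries, ordered by role and level. The paired points nearly coincide for most genes, from Psmb8 at 179 and 193 FPKM down to Cxcl9 at 0.423 and 0.301 FPKM.

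The 15 antiviral effectors were split, with 8 listed higher and 7 lower in PTBP1_KO and none past the test. Isg15, a ubiquitin-like protein that is attached to other proteins during infection, was at 18.8 FPKM in WT and 19.2 FPKM in PTBP1_KO. Usp18, the protease that removes ISG15 and also damps the type I receptor, was at 3.60 and 3.59 FPKM. The 2 groups were thus listed at nearly equal levels for both genes. The IFIT proteins bind viral RNA that lacks the cap of the host. Ifit1 was at 5.87 FPKM in WT and 6.10 in PTBP1_KO, Ifit2 at 1.22 and 1.18, and Ifit3 at 3.47 and 3.70. Ifit3 shares 51.2% of its 50-base words with its near copy Ifit3b, so its value is uncertain.

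The 2′-5′ oligoadenylate synthetases make the messenger that activates RNase L, an RNA-degrading enzyme. Oas1a was at 17.4 FPKM in WT and 15.2 in PTBP1_KO, Oas2 at 3.38 and 2.76, and Oas3 at 4.48 and 4.60. These genes lie side by side on chr5 and did not share a direction, and Oas1a has 57.6% of its 50-base words in common with Oas1g. Their relatives Oasl1 (14.9 and 14.1 FPKM) and Oasl2 (46.9 and 47.7 FPKM), the last the most abundant effector, also lie together on chr5. Bst2, or tetherin, which holds budding virus particles at the cell surface, was at 30.5 FPKM in WT and 27.3 FPKM in PTBP1_KO. Rtp4, which binds viral RNA, was at 12.3 and 13.0 FPKM, and Parp14, which adds ADP-ribose to proteins, at 16.5 and 17.7 FPKM.

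The ends of the effector group were Ifi44 and Rsad2. Ifi44, an antiviral gene of the interferon response, was at 4.87 FPKM in WT and 3.91 FPKM in PTBP1_KO, for a log2 ratio of -0.32, p = 0.187 and q = 0.9998 in the authors' deposited table. Rsad2 encodes viperin, which makes a nucleotide that stops viral RNA synthesis. It was at 0.831 FPKM in WT and 0.991 FPKM in PTBP1_KO, for a log2 ratio of 0.25, p = 0.353 and q = 0.9998 in the authors' deposited table. Neither difference passed the test.

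Of the 5 sensors of nucleic acid, 4 were listed higher in PTBP1_KO and none passed the test. Ddx58, the gene for RIG-I, was at 13.3 FPKM in WT and 13.6 in PTBP1_KO. Ifih1, the gene for MDA5, was at 13.9 and 14.6 FPKM, and Eif2ak2, the gene for the kinase PKR that halts translation, at 18.6 and 19.0 FPKM. These 3 sensors of double-stranded RNA thus differed by little. Zbp1, which senses Z-form nucleic acid and can start cell death, was at 22.5 FPKM in WT and 27.1 FPKM in PTBP1_KO, for a log2 ratio of 0.27, p = 0.207 and q = 0.9998 in the authors' deposited table. Dhx58, the gene for LGP2, a regulator of the other sensors, was at 4.26 and 3.34 FPKM, for a log2 ratio of -0.35, p = 0.791 and q = 0.9998 in the authors' deposited table. The locus that the table gives for Dhx58 also spans 6 other genes.

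The 6 transcription factors and coactivators had 2 members listed higher and 4 lower. Irf1, a factor induced early by interferon gamma, was the second most abundant of the 39 at 114 FPKM in WT and 119 FPKM in PTBP1_KO. Stat2 and Irf9, parts of the complex that binds the ISRE, were at 27.5 and 24.4 FPKM in WT and at 24.7 and 23.3 FPKM in PTBP1_KO. The log2 ratio of Stat2 was -0.15, with p = 0.399 and q = 0.9998 in the authors' deposited table. Irf7, which amplifies type I interferon production, was level at 36.3 and 35.8 FPKM. Irf8, a factor mostly of myeloid and B cells, was at 59.4 and 53.7 FPKM, but its locus in the table is 4.44 Mb long and spans 209 other genes, so these values are uncertain. Nlrc5, which switches on MHC class I genes, was at 8.26 FPKM in WT and 10.4 FPKM in PTBP1_KO, for a log2 ratio of 0.33, p = 0.187 and q = 0.9998 in the authors' deposited table.

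The 7 GTPases had the highest median of the roles, with 5 listed higher in PTBP1_KO and a median difference of 0.15 on the log2(FPKM + 1) scale. None passed the test, and the median was -0.02 over the 3 GTPases whose loci hold no other gene. Gbp2, a guanylate-binding protein, was at 0.978 FPKM in WT and 1.32 FPKM in PTBP1_KO, for a log2 ratio of 0.43, p = 0.136 and q = 0.9998 in the authors' deposited table. Its neighbours in the Gbp cluster of chr3, Gbp3 (1.27 and 1.24 FPKM) and Gbp7 (1.72 and 2.02 FPKM), were also near the low end of expression. Of the immunity-related GTPases, Irgm1 was at 27.6 and 30.5 FPKM, Irgm2 at 8.74 and 10.4 FPKM, and Igtp at 18.6 and 22.9 FPKM. Igtp and Irgm2 overlap on chr11 and share exons, so reads could be divided between them. Iigp1, an effector of the same family, was at 1.42 FPKM in WT and 1.30 FPKM in PTBP1_KO, for a log2 ratio of -0.12, p = 0.659 and q = 0.9998 in the authors' deposited table.

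Antigen processing genes included the most abundant member, Psmb8, and none passed the test. Psmb8 and Psmb9 encode subunits of the immunoproteasome, and Tap1 and Tap2 the transporter that carries peptides to MHC class I. Psmb8 was at 179 FPKM in WT and 193 FPKM in PTBP1_KO and Tap1 at 34.7 and 37.0 FPKM. Tap2 was at 23.0 and 26.2 FPKM, for a log2 ratio of 0.19, p = 0.522 and q = 0.9998 in the authors' deposited table. Psmb9 was at 64.1 and 60.8 FPKM, for a log2 ratio of -0.08, p = 0.783 and q = 0.9998 in the authors' deposited table. These 4 genes lie together in the MHC region of chr17, and 3 of the 4 were listed higher. Psmb9 and Tap1 overlap each other's exons, and Psmb8 and Tap2 each overlap an exon of Gm20496. The locus given for each of the 4 also holds other genes, so these values are uncertain.

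The 2 chemokines, which draw T cells through the receptor CXCR3, were low in both groups. Cxcl9 was at 0.423 FPKM in WT and 0.301 FPKM in PTBP1_KO, for a log2 ratio of -0.49, p = 0.354 and q = 0.9998 in the authors' deposited table. Cxcl10 was at 1.47 FPKM in WT and 1.49 FPKM in PTBP1_KO, for a log2 ratio of 0.02, p = 0.969 and q = 0.9998 in the authors' deposited table. No chemokine difference passed the test.

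How small a difference the authors' test called can be read from the other genes. Among tested genes of 20 to 100 FPKM, the smallest absolute log2 ratio with a q below 0.05 was 0.60, while the largest among the 12 members in that range was 0.30. At 1 to 5 FPKM the smallest called was 0.75, and the largest among 12 members was 0.43. At or below 1 FPKM the smallest called was 1.14, and the largest of 2 members 0.49. In every range the members lay under the smallest ratio that was called. That ratio is not a limit of detection, and a difference in the members is not shown to be absent. Smaller ratios reached an unadjusted p below 0.05 in the same test. The smallest were 0.53 at or below 1 FPKM, 0.33 at 1 to 5 FPKM and 0.29 at 20 to 100 FPKM. In the plot of ratio against level the members form a narrow band at 0, and the called genes lie outside it.

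**Figure D3:**
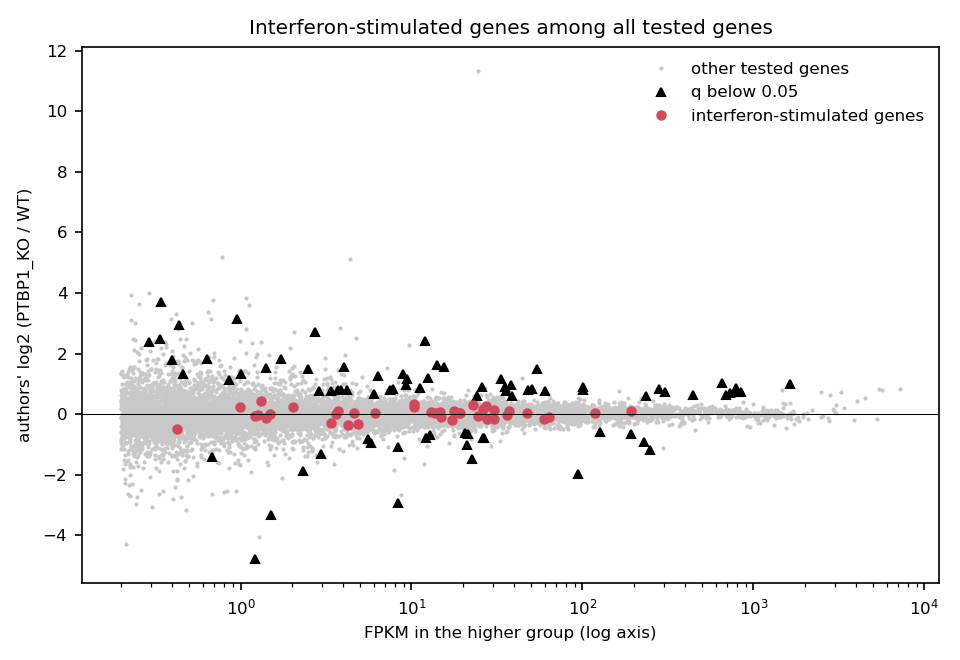
The authors' log2 ratio of PTBP1_KO to WT (y axis) against FPKM in the higher group (log x axis) for all tested genes in grey, the 83 genes with a q below 0.05 as black triangles and the 39 interferon-stimulated genes in red. All members lie between -0.49 and 0.43.

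Both motif classes were compared by level. Of the 18 members with an ISRE in the promoter window, 14 were listed higher in PTBP1_KO, with a median difference of 0.04 on the log2(FPKM + 1) scale. Of the 12 members whose window had none, 4 were listed higher, with a median of -0.04. With a GAS match, 6 of 10 were listed higher, and without one 12 of 20. The medians differ by less than 0.1 on the log2 scale, and no member of either class passed the test. Among all tested genes 54.7% were listed higher. The members with an ISRE include the overlapping genes Igtp and Irgm2, and whether direction goes with the motif was not tested.

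The rest of the pathway was read from lists of other genes. Of 16 interferon and cytokine genes that can start the response, 10 were listed at 0 in both groups, among them Ifnb1, Ifnl2 and Ifnl3, and 3 had values high enough to be tested. Ifng, the gene for interferon gamma, was at 0.118 FPKM in WT and 0.214 FPKM in PTBP1_KO, for a log2 ratio of 0.86 and p = 0.189 in the authors' deposited table. Il18, an epithelial cytokine that drives interferon gamma production in lymphocytes, was at 73.5 FPKM in both groups. Thus Ifng was the only interferon gene of the list that was tested, and it did not pass. Ifng was near the low end of the range, as was the member Cxcl9.

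None of the 8 receptor genes passed a q of 0.05, and 7 of 8 were listed higher in PTBP1_KO. For type I interferon, Ifnar1 was at 14.7 FPKM in WT and 14.9 in PTBP1_KO and Ifnar2 at 7.98 and 9.64. For interferon gamma, Ifngr1 was at 78.7 and 87.8 FPKM and Ifngr2 at 33.0 and 37.2 FPKM. For type III interferon, Ifnlr1 was at 5.59 and 5.84 FPKM and its partner Il10rb at 52.2 and 51.3 FPKM. Subunits for every type were thus expressed in both groups. Il22ra1, a subunit of the interleukin-22 receptor, was at 12.3 FPKM in WT and 15.5 FPKM in PTBP1_KO, for a log2 ratio of 0.33, p = 0.0345 and q = 0.962 in the authors' deposited table. Il18r1, the receptor of interleukin-18, was at 0.332 and 0.335 FPKM.

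Of the genes that carry the signal onwards, 0 of 11 signalling genes, 0 of 17 tested genes of nucleic acid sensing and 0 of 11 inhibitors had an unadjusted p below 0.05 in the authors' Cuffdiff test, and therefore none passed a q of 0.05. Of 70 other tested interferon-stimulated genes, 46 were listed higher and 24 lower, and 0 passed a q of 0.05. An unadjusted p below 0.05 was found for 4 of them, all higher in PTBP1_KO, against 2.69% of all tested genes. Ifi203, of the family that senses DNA, was at 1.21 FPKM in WT and 2.13 FPKM in PTBP1_KO, for a log2 ratio of 0.81, p = 0.00215 and q = 0.212 in the authors' deposited table. Shisa5 was at 73.8 and 103 FPKM, for a log2 ratio of 0.48, p = 0.0166 and q = 0.682 in the authors' deposited table. Ifitm1, which hinders the entry of viruses, was at 1.38 and 2.74 FPKM, and Ifit1bl2 at 12.9 and 16.1 FPKM, with p = 0.0383 and p = 0.0437 and q = 0.9998 for each in the authors' deposited table.

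Lymphocyte markers held genes past the test, with 3 of 13 against 0.537% of all tested genes. Of the 39 interferon-stimulated genes 0 passed, which is close to that share of all tested genes. The lists were chosen with earlier results of these data known, so the contrast between them is a description only. By the q-values of the authors' deposited table, 3 of 13 lymphocyte markers passed 0.05, each with q = 0.0125 and each higher in PTBP1_KO. They were Cd8a, the coreceptor of cytotoxic T cells (4.30 and 7.52 FPKM), and the granule proteases Gzma (54.9 and 101 FPKM) and Gzmb (18.9 and 35.3 FPKM). The summed level of the 13 markers was 118 FPKM in WT and 208 FPKM in PTBP1_KO, 12 of 13 were listed higher, and their median difference was 0.57 on the log2(FPKM + 1) scale. The 7 epithelial markers summed to 5691 and 6212 FPKM, with none called. B and plasma cell markers summed to 29.6 and 40.6 FPKM, myeloid markers to 10.7 and 11.4 FPKM, and stromal markers to 4.15 and 2.97 FPKM. An unadjusted p below 0.05 was found for 9 of 13 lymphocyte markers and 3 of 7 B and plasma cell markers, all higher in PTBP1_KO, and for 4 of 7 tested stromal markers, all lower. Among all tested genes 4.35% had such a p, and 2.69% had it and were higher in PTBP1_KO. Of 3 tested dendritic cell markers 1 had such a p, Siglech of plasmacytoid dendritic cells, at 0.156 and 0.391 FPKM, near the low end of expression. Its p was 0.00615 and its q 0.403 in the authors' deposited table, where Ccr9 and Bst1 had p = 0.529 and p = 0.996. What part such cells have in the levels of the interferon-stimulated genes was not tested. The plot of pathway lists sets these groups side by side.

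**Figure D4:**
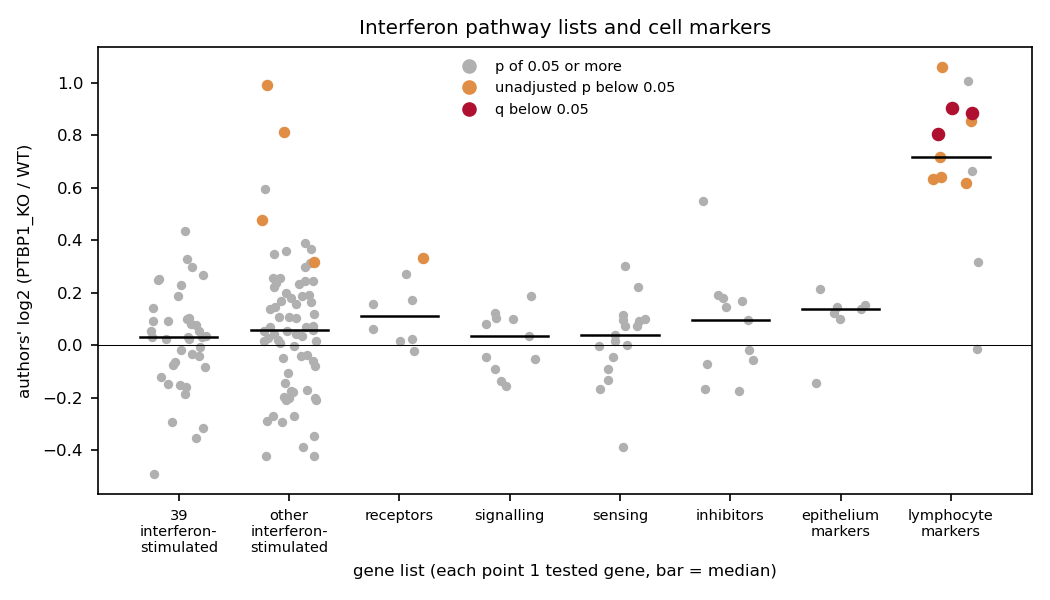
The authors' log2 ratio of PTBP1_KO to WT (y axis) for each tested gene of 8 lists, with the list's median on this scale as a bar. The 39 interferon-stimulated genes and the 5 other pathway lists drawn centre close to 0 (the 3 tested ligand genes are not drawn), while the lymphocyte markers centre well above it and alone hold genes with a q below 0.05 (3 of 13).

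The level of the interferon-stimulated genes in single libraries can be seen only through the deposited splicing tables, and this reading was chosen after the data were seen. Those tables give reads at alternative exons for 2 sets of 3 libraries. The headers leave the genotype of each set unnamed, so no genotype is given to a library and the sets are not compared. For each gene, the skipped exon event with the most reads was taken and divided by the sum of all such reads in the library, which came to between 32226951 and 39774266 reads. The resulting unit, RPM, is reads of the event per 1000000 of these reads. These sums count a read once for each event it serves, so they are not the depth. Intervals below are exact Poisson 95% intervals and cover counting error only.

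The members varied more from library to library than most genes. Of the 39, 27 had at least 120 reads in all over the 6 libraries. The median ratio of the highest to the lowest library was 1.95 for these 27, against 1.50 for 8924 genes. A ratio of 2 or more was found for 13 of 27 (48.1%), against 17.6% of all genes. Other interferon-stimulated genes spread as widely, with a median ratio of 1.86 over 46 genes, while the epithelial markers had a median ratio of 1.27. The lymphocyte markers were at 2.89 (9 genes) and the B and plasma cell markers at 15.2 (5 genes). What part such cells have in the spread of the members was not tested.

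This spread was shared, because the same libraries were high for most members. The first-listed library of set 2 was the highest of 6 for 19 of 27 members (70.4%), against 11.5% of all genes. It was the highest or second highest for all 27 members. The first-listed library of set 1 was the highest for 7 members, namely Ifih1, Igtp, Iigp1, Irf1, Irgm2, Tap2 and Zbp1. The remaining member, Psmb8, was highest in the second-listed library of set 2. Relative to each gene's mean, the median level of the members was 1.28 in the first-listed library of set 2 and 1.13 in that of set 1, and between 0.82 and 0.95 in the other 4. The first-listed library of set 1 was not high for every member. It was the lowest of 6 for Bst2 (8.14 RPM), Oas2 (0.488 RPM) and Irf9 (29.2 RPM). The group values of the gene table cannot be recomputed without either first-listed library.

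The library with the most lymphocyte signal was another one. Of 9 lymphocyte markers with enough reads, 6 were highest in the second-listed library of set 1, where their median relative level was 1.56 and that of the members 0.95. In the first-listed library of set 1, where the members were at 1.13, the lymphocyte markers were at 0.84. In the first-listed library of set 2 both were above their mean, with 1.28 for the members and 1.15 for the lymphocyte markers. The other 2 libraries of set 2 were the lowest for both lists, at 0.89 and 0.82 for the members and 0.77 and 0.52 for the lymphocyte markers. The 2 lists thus shared their lowest libraries and differed in their highest, and what part lymphocytes have in this was not tested.

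The roles differed in how far they spread. The 4 GTPases had the widest median ratio of highest to lowest library at 4.20, followed by 8 effectors at 2.43, 5 sensors at 1.74, 6 factors at 1.57 and 4 antigen processing genes at 1.43. All 8 effectors were highest in the first-listed library of set 2, and 3 of the 4 GTPases in that of set 1. These are descriptions of 6 libraries, with no test.

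Iigp1 spread the most. Its lowest, median and highest values were 0.107, 0.474 and 1.46 RPM, from 4 reads (interval 0.0292 to 0.275) to 48 reads (interval 1.08 to 1.94). Igtp ran from 6.20 (interval 5.42 to 7.05) over a median of 21.6 to 34.0 (interval 32.0 to 36.1) RPM, a ratio of 5.49. For both genes the intervals of the extreme libraries lay far apart, so the spread was larger than counting error. Both were highest in the first-listed library of set 1.

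Among effectors, Ifi44 was at 0.966, 1.40 and 4.77 RPM in its lowest, median and highest library. Oas2 was at 0.488, 0.712 and 1.81 RPM, and Usp18 at 1.61, 2.45 and 5.01. For Ifi44 and Oas2 a single library, the first-listed of set 2, stood well above the other 5. Usp18 was highest in that library too, but was also at 3.35 RPM in the first-listed and 2.91 RPM in the second-listed library of set 1. Oasl2, with 11.8, 17.2 and 30.3 RPM, and Bst2, with 8.14, 11.7 and 18.5, had the same high library. The factor Irf7, at 16.1, 23.3 and 38.7 RPM, did so as well.

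Other members hardly varied. Irf9 was at 29.2, 32.2 and 33.2 RPM in its lowest, median and highest library, a ratio of 1.14. Psmb9 was at 60.9, 70.2 and 74.2 RPM, and Eif2ak2 at 13.4, 15.0 and 16.8. Irf1 was at 76.0, 87.4 and 99.3 RPM. The plot of libraries shows these genes at its foot, with all 6 points close together, and the GTPases and effectors at its head.

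**Figure D5:**
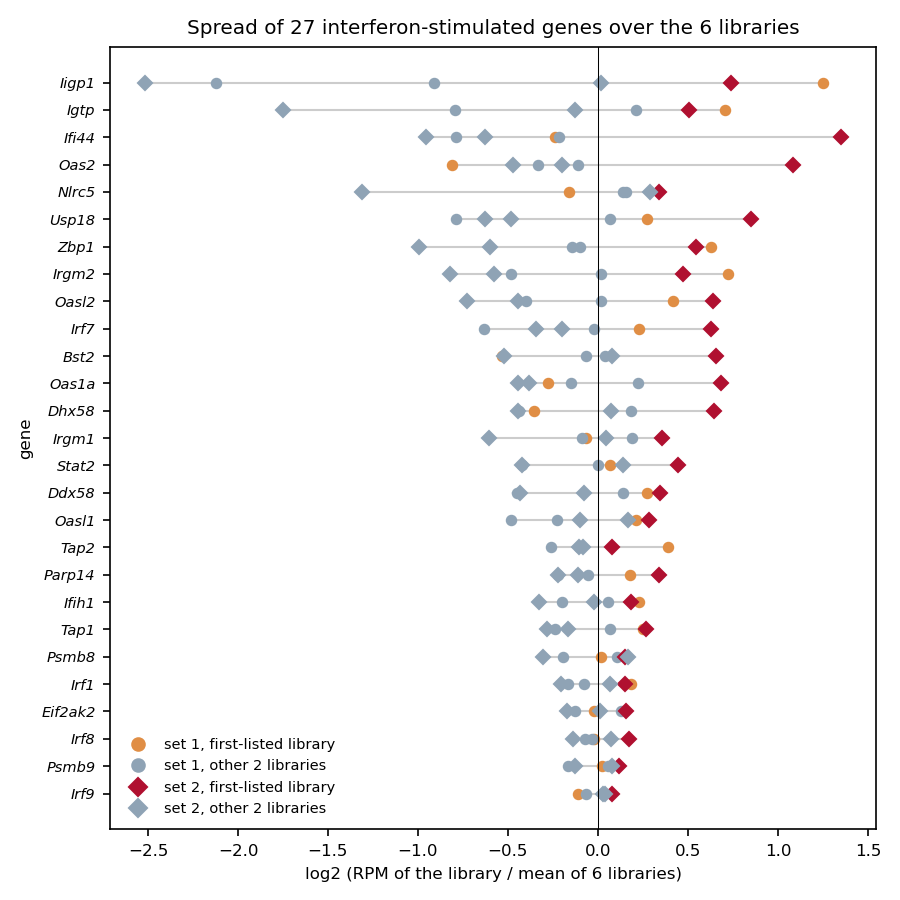
Level from the most-read skipped exon event in each of 6 libraries relative to the gene's mean (x axis, log2) for 27 members, ordered by the ratio of highest to lowest, from 13.6 for Iigp1 to 1.14 for Irf9. Circles are libraries of set 1 and diamonds those of set 2. The first-listed libraries are coloured, and the red diamond is the rightmost point for 19 genes.

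Splicing of the members was also compared by the authors, between the same 2 sets. An event was counted as changed with an FDR below 0.05, an inclusion level difference of at least 0.1 and a mean of at least 20 reads. By this rule, 0 of 146 events in 27 members were changed in the authors' deposited tables, against 1.56% of 53918 events in all genes. None of the 146 reached an FDR below 0.05, and 12 of the 146 had an unadjusted p below 0.05 by the authors' MATS test, against 10.3% of the events in all genes. The median absolute inclusion level difference of the 146 was 0.006, and their median coverage was 335 reads per library.

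The event with the smallest p was a 46-base exon of Irgm2 at chr11:58216956-58217001 (mm10). Its inclusion level over all 6 libraries together was 17.7%, from a mean of 72.5 reads per library and at least 44 in each. In the authors' deposited table its inclusion level differed by -0.106 (first set minus second set), with p = 0.00205 and FDR = 0.0529. It therefore missed the threshold. Since the sets carry no genotype in the headers, no direction by genotype is given.

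Most cassette exons of the members were nearly always included, and 9 exons in 7 genes had a skipped exon event with a pooled inclusion between 10% and 90%. Ifi44 had 3 of them, included at 66.8%, 64.3% and 79.7%. The first of these, 500 bases long at chr3:151749145-151749644 (mm10), had the largest inclusion level difference of the members, -0.265 in the authors' deposited table, with FDR = 0.144 and a mean of 55 reads per library. An 86-base exon of Irf9 was included at 34.6% and a 93-base exon of Oas2 at 23.6%. A 93-base exon of Irf7 was included at 85.3% in the event counted here, but at 97.8% and 99.2% in other events of the same exon. Likewise, a 219-base exon of Irgm1 was at 44.2% in the event counted and at 99.5% in another. None of these exons passed the authors' test.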

How the data were processed

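RNA-seq libraries of 3 WT and 3 PTBP1_KO samples were grouped by the labels' titles. The submitters' processing notes name the build mm10 and the tools Cuffdiff, Cufflinks, STAR 2.6.1d, Trimmomatic 0.38 and bcl2fastq 2.20. Gene levels are the FPKM that the authors deposited, 1 per group. The same file holds the authors' log2 ratio, p-value and q-value, per the file headers. The splicing tables hold the authors' comma-separated read numbers per library, inclusion level differences, p-values and FDRs in the MATS layout. Inclusion levels of single libraries (10 columns) were left out.

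The authors' tests were taken as deposited. Medians used log2(FPKM + 1). Gene loci were checked against GENCODE M21 for other genes and for shared 50-base words, and motifs were searched on both strands of the RefSeq windows. The members and the lists were chosen with earlier results of these data known. By the rule for named genes, full statistics are given for the member with the largest ratio in each direction of each role group, for pathway genes with an unadjusted p below 0.05 and, of splicing, for the event of smallest p. Receptors are given by level, cell markers by counts and summed levels with examples. Genes named for their library spread or exons were chosen after their values were seen. The scripts, tested on simulated data, ran in Python 3.11.15 with pandas 2.3.3 and scipy 1.17.1.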

Additional observations from a re-analysis of the deposited data

How the results depend on the processing

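No paired analysis was possible because the gene table holds 1 value per group, and leaving out a replicate was impossible for the same reason. Of 76 values recomputed under other settings, 64 kept their direction and stayed near the reported value. The count of members called stayed at 0 under a q of 0.1, an unadjusted p of 0.05, a log2 ratio of at least 1, and a minimum of 1 FPKM. Settings that only remove genes or events, such as the minimum of 1 FPKM, cannot raise a count of 0. Such counts are among the 64. The count listed higher in PTBP1_KO was 9 of 18 without overlapping or copied genes, and 10 of 18 without members whose locus holds other genes, a setting added after the data were seen. That setting left 1 factor, Stat2, with a median of -0.15, and 3 GTPases with a median of -0.0197, which reversed the sign. No antigen processing gene was left under it. The chemokine median of -0.06 was -0.18 with a pseudocount of 0.1, -0.23 on the authors' log2 scale, and 0.0142, with the sign reversed, when only Cxcl10 passed a minimum of 1 FPKM. At an unadjusted p below 0.05 in place of a q of 0.05, calls went from 0 to 1 among receptors and from 0 to 4 among other interferon-stimulated genes. With median-ratio scaling, 16 members were highest in the first-listed library of set 2 and 11 in that of set 1, and 13 again had a ratio of 2 or more. In the 250 bases before the start alone, the share of members with the ISRE was 50%, against 60.0% in the full window. The share with the GAS stayed at 33.3%. Of all genes, 3.46% held the ISRE and 8.13% the GAS in those 250 bases, and 9.76% held the shorter ISRE. Fewer genes or a looser threshold are part of the locus, 1 FPKM and unadjusted p settings, and for the pseudocount, the authors' log2 scale, the motif window and the median-ratio scaling the cause was not tested. The gene table gives no depth, and exons with few reads limit the splicing values.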
